A study of Mus musculus with 6 samples.

Results

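miR-9 is a brain-enriched microRNA (miRNA), and both arms of its hairpin were examined here among the short RNAs bound to Argonaute (Ago) proteins in mouse brain. The members were the unique sequences that the deposited annotation named mmu-miR-9-5p or mmu-miR-9-3p. These are 2 of 793 miRNA names in the table, and they covered 376 of 109434 listed sequences, 264 of the 5p arm and 112 of the 3p arm. Of these, 374 were above 0 in at least 1 sample, 248 had a mean of at least 1 RPM and 129 were above 0 in all 6 samples. RPM are reads of a sequence per 1000000 reads of its library. The arms were picked by name, but with the higher level of miR-9-5p in the transgenic mice already known, so that level is given as a description without a test.

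The 6 samples were 3 WT and 3 Tau tg brains. Per the study's methods, all were from 3-month-old male mice on a C57BL/6J background. The Tau tg mice expressed part of human tau from a Thy promoter, which is active in neurons. The labels gave the source as hippocampus and the protocol as cortex and hippocampus combined, and every sample was the RNA that came down with a GW182 peptide, which binds Ago proteins. The table held no transgene measurement, so the genotypes were not checked. The deposited table kept between 998248 and 6879551 whole reads per library, the most in Tau tg 1. Of those, 32298 to 313196 reads per sample were miR-9-5p and 9416 to 78585 were miR-9-3p.

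A miRNA hairpin is cut by Drosha and then by Dicer, and 1 strand of the resulting duplex usually stays in Ago while the other is lost. The retained strand pairs with target mRNAs mainly through its seed, the bases after the first one at the 5′ end, so a shift of the 5′ end by a single base gives the RNA another seed. miR-9 is known for roles in neural progenitors and in neuron differentiation, and it is a case where both strands are known to be functional. RefSeq lists the mature sequences as follows, with bases 2 to 8, the seed, in capitals.
miR-9-5p: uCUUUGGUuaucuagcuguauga
miR-9-3p: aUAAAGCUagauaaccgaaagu

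In the mouse, 3 hairpins give the same mature arms, so the position of most reads cannot be assigned to 1 of them. On GRCm38.p6, all on the plus strand, Mir9-1 is at chr3:88215598-88215686, within an intron of lincRNA Gm3764 and opposite Gm25641. Mir9-2 is at chr13:83738814-83738885, within an exon of lincRNA C130071C03Rik. Mir9-3 is at chr7:79505264-79505353, within an intron of lincRNA Mir9-3hg. The RefSeq hairpins are shown because the bases outside the mature arms, in lower case, are the ones that tell the hairpins apart.
Mir9-1: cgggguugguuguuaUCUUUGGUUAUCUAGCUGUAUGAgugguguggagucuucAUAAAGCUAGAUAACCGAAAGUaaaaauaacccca
Mir9-2: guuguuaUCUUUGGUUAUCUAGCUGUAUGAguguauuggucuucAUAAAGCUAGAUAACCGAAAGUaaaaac
Mir9-3: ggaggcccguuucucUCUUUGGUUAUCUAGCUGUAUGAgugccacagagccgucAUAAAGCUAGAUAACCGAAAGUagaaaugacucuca

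miR-9-5p was the more abundant arm in all 6 samples and stood higher in Tau tg than in WT mice, while miR-9-3p did not separate the groups. miR-9-5p ranked 3rd by mean RPM of the 782 miRNAs above 0 in any sample, and between the 2nd and 5th rank in single samples. It was found at 37677, 29427 and 29628 RPM in WT 1, 2 and 3, against 44564, 48005 and 46351 RPM for Tau tg 1, 2 and 3. Every Tau tg sample lay above every WT sample, and WT 1 was the WT sample nearest to them. As a share of all reads annotated as miRNA, miR-9-5p made up 4.34%, 3.78% and 3.91% in the WT samples, against 4.93%, 5.67% and 5.56% for the Tau tg samples. The group means were 32244 ± 4706 RPM for WT against 46307 ± 1720 RPM for Tau tg (SD, n = 3), a fold of 1.44. The log2 difference of Tau tg minus WT on the log2(RPM + 1) scale was 0.53 ± 0.32 (SE, n = 3 per group). The median miRNA moved by 0.25 on this scale, and by 0.09 under median-of-ratios scaling, so the difference relative to the median in RPM was 0.29. Of the 472 miRNAs of the series above 0 in every library, 7.42% had each Tau tg value above each WT value, and 9.53% were separated in either direction.

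miR-9-3p ranked 21st by mean RPM. It was found at 13883, 8259 and 8638 RPM in WT 1, 2 and 3, against 11182, 12960 and 8219 RPM for Tau tg 1, 2 and 3. The highest and the lowest value were WT 1 and Tau tg 3, so the groups overlapped. The group means were 10260 ± 3144 RPM in WT against 10787 ± 2395 RPM in Tau tg (SD, n = 3). The log2 difference was 0.09 ± 0.33 (SE) with a limma adjusted p of 0.966, or -0.16 relative to the median miRNA. Its sign changed with the scaling and with the samples kept. None of the 689 miRNAs tested had a limma adjusted p under 0.05 (0%), and 25 (3.63%) had an unadjusted p under 0.05. On recovered reads, edgeR also gave 0 adjusted calls and DESeq2 gave 5.

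Because both arms come from the same hairpins, their ratio was compared within each sample. The ratio of miR-9-5p to miR-9-3p was 2.71, 3.56 and 3.43 in WT 1, 2 and 3, against 3.99, 3.70 and 5.64 for Tau tg 1, 2 and 3. Each Tau tg sample had a higher ratio than each WT sample, but Tau tg 2 exceeded WT 2 by little and WT 1 and Tau tg 3 stood apart at the ends. The 95% Wilson interval of the 3p share was 26.7% to 27.2% in WT 1 and 14.9% to 15.3% in Tau tg 3, for counting error only. On the log2 scale the ratio was 1.68 ± 0.21 in WT against 2.13 ± 0.32 in Tau tg (SD, n = 3). The difference of 0.44 had an exact two-sided permutation p of 0.1, the smallest that 3 against 3 allows, and an adjusted p of 0.75 over 15 measures. It used the level of miR-9-5p and is therefore not independent of it. Of 137 hairpins with both arms above 0 in all samples, 4.38% had each Tau tg ratio above each WT ratio, and 12.4% were separated in either direction.

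**Figure D1:**
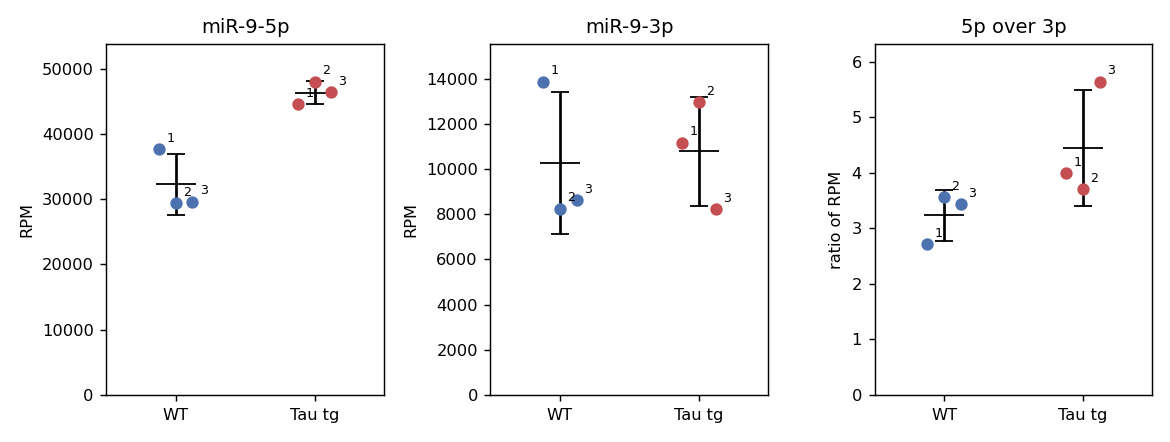
Level of miR-9-5p and miR-9-3p in RPM, and the ratio of the arms, for each of the 3 WT (blue) and 3 Tau tg (red) samples, with the replicate number beside each point; the bars are the mean and SD. The Tau tg samples sit at 44564 to 48005 RPM for miR-9-5p, above the WT samples at 29427 to 37677 RPM, while the miR-9-3p points of both groups overlap.

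The minor arm of miR-9 was abundant compared with that of other hairpins. miR-9-3p made up 21.3% of the reads of both arms as a mean over the 6 samples, while the median over 83 hairpins with at least 1000 RPM was 1.91%. miR-9 ranked 12th of these hairpins by that share and 1st by the RPM of its minor arm. This ranking was chosen after the values were seen and is a description.

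The reads of miR-9-5p fell on 3 main 3′ ends. Its 5 most abundant reads are shown with the 6mer seed in capitals, the 6 bases at positions 2 to 7 for which the deposited table gives a viability. This 6mer seed viability is the cell viability, in percent, that the authors assigned to RNAs with a given seed, as a mean over 3 murine cell lines.
5p read A: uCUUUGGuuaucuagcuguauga
5p read B: uCUUUGGuuaucuagcuguau
5p read C: uCUUUGGuuaucuagcuguaug
5p read D: uCUUUGGuuaucuagcuguaugu
5p read E: cUUUGGUuaucuagcuguauga

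Read A is the RefSeq form of 23 nt. It was found at 12508, 9390 and 10887 RPM in WT 1, 2 and 3, against 17209, 17222 and 14929 RPM for Tau tg 1, 2 and 3. Read B, which ends 2 bases earlier, was found at 8753, 6916 and 7607 RPM in the WT samples, against 9921, 13714 and 15985 RPM for the Tau tg samples. The groups did not overlap in read A or in read B, and read B was highest in Tau tg 3. Read C, which ends 1 base early, stood at 9820, 7391 and 5831 RPM in the WT samples, against 10070, 7210 and 7697 RPM for the Tau tg samples, and these ranges overlapped. The log2 differences were 0.60 ± 0.31 for read A, 0.75 ± 0.33 for read B and 0.13 ± 0.34 for read C (SE, n = 3 per group). Read C alone among the 5 changed sign when the scaling was changed or 1 sample was left out.

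Read D carries a last U that no Mir9 hairpin encodes, and read E starts 1 base later than the RefSeq form. Read D had a mean of 1240 ± 204 RPM in WT against 1954 ± 363 RPM in Tau tg (SD, n = 3). Read E had means of 1089 ± 148 and 1815 ± 449 RPM. Both are given without a test, like the arm as a whole. The 172 reads of miR-9-5p with a mean of at least 1 RPM had a median log2 difference of 0.56, while the median over all 36070 sequences tested was -0.16. The median over all sequences changed sign with the settings. It was 0.11 when the filter was raised to 10 RPM and 0.28 without a filter. With 1 sample left out it ran from -0.76 to 0.45, so it is no stable reference for the 0.56. Of the 93 miR-9-5p reads above 0 in all samples, 22 had every Tau tg sample above every WT sample and none had the reverse. Over all 5832 such sequences of the series, 5.86% had every Tau tg sample above every WT sample, and 9.31% were separated in either direction. The reads of an arm share its libraries and its level, which was known to be higher in Tau tg. The count of 22 therefore restates that level and adds no support to it.

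Since the level of the arm moves all of its reads, the make-up of each arm was compared as shares of its own reads. Reads of 21, 22 and 23 nt made up 29.5%, 25.6% and 39.7% of miR-9-5p as means over the 6 samples. The 22-nt share was 30.4%, 29.8% and 24.2% in WT 1, 2 and 3, against 27.0%, 21.4% and 21.1% for Tau tg 1, 2 and 3. The 21-nt share was 26.9%, 26.7% and 29.2% in the WT samples, against 25.5%, 31.8% and 37.0% for the Tau tg samples. Tau tg 1 stayed within or near the WT range in both, so these shares overlapped between the groups. Reads of 19 nt were few. Their share was 1.48%, 2.44% and 1.31% in the WT samples, above the 0.981%, 0.994% and 1.08% of the Tau tg samples without overlap. No other length of miR-9-5p with a mean of at least 1 RPM had separated groups. The 19-nt observation was picked after the values were seen and was not tested. The mean length of miR-9-5p differed by 0.0054 nt between the groups, with an exact permutation p of 1.

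**Figure D2:**
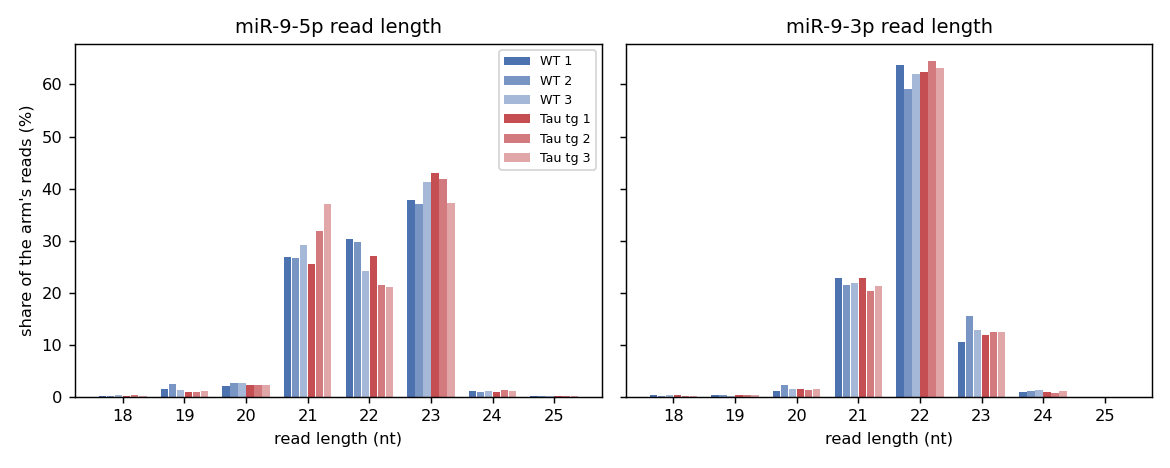
Share of each arm's reads (percent) by read length in nt, for the 3 WT (blue shades) and 3 Tau tg (red shades) samples. miR-9-5p is spread over 21, 22 and 23 nt, whereas 22 nt holds 59.1% to 64.5% of miR-9-3p in every sample.

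The 3p arm had a single main length and 2 main 5′ ends. Its 5 most abundant reads are shown with the 6mer seed in capitals.
3p read A: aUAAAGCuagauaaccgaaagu
3p read B: uAAAGCUagauaaccgaaagu
3p read C: uAAAGCUagauaaccgaaagua
3p read D: aUAAAGCuagauaaccgaaagua
3p read E: uAAAGCUagauaaccgaaaguau

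Read A, the RefSeq form of 22 nt, was found at 6128, 3187 and 3608 RPM in WT 1, 2 and 3, against 4519, 5991 and 3498 RPM for Tau tg 1, 2 and 3. Read B lacks the first base and was found at 2929, 1571 and 1639 RPM in the WT samples, against 2257, 2418 and 1589 RPM for the Tau tg samples. Read C lacks the first base and extends 1 base further, and stood at 2571, 1636 and 1689 RPM in the WT samples, against 2329, 2264 and 1634 RPM for the Tau tg samples. WT 1 held the highest value of each of these reads and the groups overlapped. The log2 differences were 0.14 ± 0.37, 0.07 ± 0.41 and 0.09 ± 0.41 (SE), with limma adjusted p-values of 0.818, 0.928 and 0.899. Of the 76 reads of miR-9-3p tested, none had a limma p under 0.05, adjusted or unadjusted, where 2.23% of all sequences had an unadjusted and 0.0277% an adjusted p under 0.05. Their median log2 difference was 0.13, and 43 of them were positive. In simulated sequences with the common dispersion of 4.87 estimated here, limma called 0% of 8-fold changes at an adjusted p under 0.05. At an unadjusted p under 0.05 it called 6.09%. At that dispersion, an absence of calls says little. The simulation set this dispersion alike for all sequences. It does not give the power for abundant reads such as A, B and C, with SE of 0.37 to 0.41.

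In miR-9-3p, a start 1 base late was nearly as common as the RefSeq start. Reads that began 1 base late made up 45.8%, 50.3% and 46.7% of miR-9-3p in WT 1, 2 and 3, against 47.9%, 44.1% and 46.8% for Tau tg 1, 2 and 3. WT 2 and Tau tg 2 were the extremes, and the ranges of the groups overlapped. Only in WT 2 did the late start outnumber the RefSeq start. All 5′ ends other than the RefSeq one together made up 48.2% ± 2.79 in WT against 46.7% ± 2.08 in Tau tg (SD, n = 3; exact permutation p = 0.6). In miR-9-5p, they made up 8.33% ± 0.643 against 8.80% ± 1.80 (exact permutation p = 0.9).

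The arms were compared within each sample, which pairs them. All differences are miR-9-5p minus miR-9-3p, in percentage points with the SD of 6 differences. The share of reads with a shifted 5′ end differed by -38.9 ± 2.96. Reads shorter than the RefSeq form differed by 35.2 ± 2.71 and reads longer than it by -12.4 ± 1.75. These 2 shares refer to unlike lengths, since the RefSeq form has 23 nt in miR-9-5p and 22 nt in miR-9-3p. The mean read length over the 6 samples was 22.03 nt in miR-9-5p and 21.88 nt in miR-9-3p, so miR-9-5p reads were not the shorter ones. Reads with a 3′ tail that no hairpin encodes differed by 1.83 ± 1.06. Each of these 4 differences had the same direction in 6 of 6 samples. Each had an exact sign-flip p of 0.0312, the smallest that 6 samples allow, and an adjusted p of 0.0391 over 5 measures. An A added after the RefSeq end of miR-9-3p matches the hairpins, so the tail measure cannot count it in that arm. A single U tail made up 4.88% of miR-9-5p and 5.17% of miR-9-3p, and a single A tail 2.11% and 0.224%. The tail difference therefore does not show more tailing of miR-9-5p. Mismatches before the tail differed by 0.202 ± 0.219, higher in miR-9-5p in 5 of 6 samples, with an exact sign-flip p of 0.0938. The deposited annotation named only reads with at least 18 bases in a row from a hairpin, and the shares of mismatched reads are therefore lower limits.

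The 5′ end set the 6mer seed. In miR-9-5p, the seed CUUUGG held 91.1% of the arm and has a viability of 60.9%. The seed of read E, UUUGGU, held 6.60% and has a viability of 60.4%, and UUGGUU, from reads that start 2 bases late, held 0.883% and has a viability of 83.3%. The seed UCUUUG, which reads that start 1 base early carry, held 0.365% and has a viability of 82.6%. In miR-9-3p, UAAAGC held 52.8% of the arm with a viability of 50.6%, and AAAGCU held 46.6% with a viability of 54.3%.

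The weighted mean viability of each arm differed by less than the spread between samples. It was 61.2% ± 0.0596 in WT against 61.2% ± 0.119 in Tau tg for miR-9-5p, and 52.5% ± 0.193 and 52.4% ± 0.108 for miR-9-3p (SD, n = 3), with exact permutation p-values of 1 and 0.8. Nearly all reads with the main seed of the 5p arm came from this miRNA, 98.7% to 98.8% of CUUUGG in every sample. The seed UAAAGC was also 98.1% to 99.0% miR-9-3p. AAAGCU was shared with miR-320-3p, which held 1505 RPM of it as a mean, and miR-9-3p made up 60.4% to 87.3% of that seed. Of the remaining seeds of miR-9-5p with at least 10 RPM, the most abundant, UGGUUA, held 118.7 RPM and has a viability of 80.4%. In miR-9-3p, reads with AAGCUA held 24.8 RPM and reads with AUAAAG held 19.5 RPM, and these seeds have viabilities of 72% and 79.1%.

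Among 101 miRNAs with a mean of at least 1000 RPM, miR-9-3p had the 2nd lowest share of reads on its main seed, 52.7% against a median of 96.6%. miR-9-5p, at 91.1%, ranked 16th from the lowest. Only miR-136-3p was below miR-9-3p, at 44.6%. This ranking was also chosen after the values were seen.

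The 2 ends of a read were not independent of each other. Among untailed reads of miR-9-3p that began at the RefSeq base, 8.84% to 10.9% extended 1 base past the RefSeq 3′ end. Among those that began 1 base late, 43.7% to 47.2% did so, and the ranges did not overlap. The mean difference was 35.5 ± 0.978 percentage points (SD of 6 differences), higher in 6 of 6 samples. In miR-9-5p, 41.5% ± 3.37 of reads with the RefSeq start reached the RefSeq 3′ end, against 60.3% ± 4.26 of reads that began 1 base late (SD, n = 6), a difference in the same direction in 6 of 6 samples. The late-starting reads were still shorter on average, with a mean difference in length of -0.46 nt in miR-9-3p and -0.64 nt in miR-9-5p. Each of these differences had an exact sign-flip p of 0.0312, the smallest possible, and the comparison was chosen after the reads were seen.

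**Figure D3:**
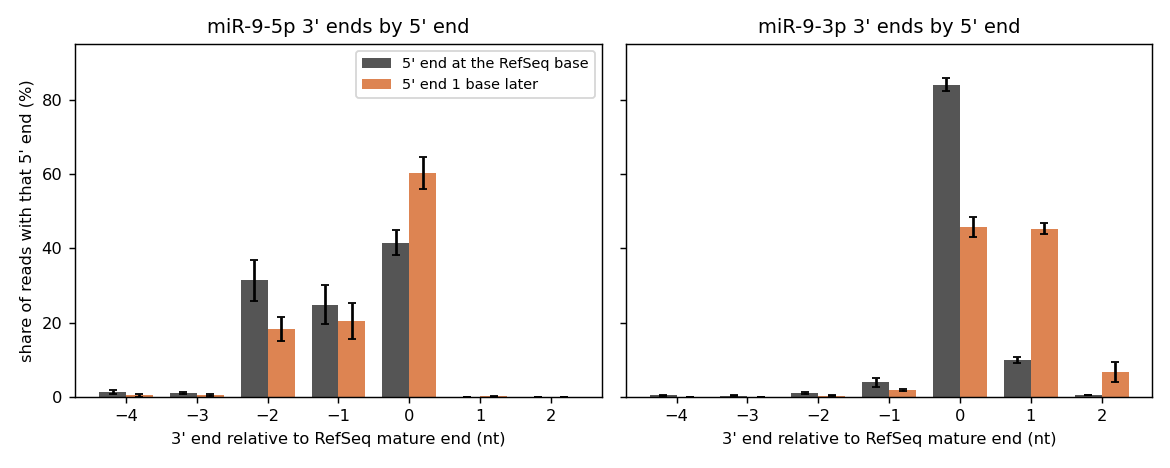
Share of untailed, exactly matching reads (percent) by the position of the 3′ end relative to the RefSeq mature end in nt, for reads that begin at the RefSeq base (grey) and 1 base later (orange); bars are means and error bars the SD over the 6 samples. In miR-9-3p, 84.0% of reads with the RefSeq start stop at position 0, while those with the late start divide between positions 0 and 1 at 45.8% and 45.3%.

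Bases added after the hairpin sequence were mostly U in both arms. Such untemplated tails are known to be added by terminal nucleotidyl transferases. A single U, as in 5p read D, made up 4.88% of miR-9-5p as a mean over the samples, and a single A made up 2.11%. In miR-9-3p a single U made up 5.17% and a single A 0.224%, but an added A after the RefSeq end of this arm cannot be told from the A that the hairpins encode there. All tails together made up 6.14%, 6.97% and 6.35% of miR-9-3p in WT 1, 2 and 3, against 5.82%, 5.54% and 5.14% for Tau tg 1, 2 and 3. Each Tau tg sample was below each WT sample, and the exact permutation p was 0.1 (adjusted p = 0.75), again the lowest possible. In miR-9-5p tails made up 7.70% ± 0.242 in WT against 7.95% ± 0.963 in Tau tg (SD, n = 3; exact permutation p = 0.8). Of the 15 measures of make-up and arm ratio, 2 (13.3%) had separated groups, this one and the arm ratio, and none had an adjusted p under 0.05.

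Few reads carried a base that tells the hairpins apart. Reads that matched all 3 hairpins exactly made up 91.0% of miR-9-5p and 90.4% of miR-9-3p. In miR-9-5p, the base before the RefSeq start is an A in Mir9-1 and Mir9-2 and a C in Mir9-3. The most abundant read of each kind is shown with the 6mer seed in capitals, which is the same in both.
Mir9-1 or Mir9-2: aUCUUUGguuaucuagcuguauga
Mir9-3: cUCUUUGguuaucuagcuguauga

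Reads that matched only Mir9-3 stood at 21.1, 13.6 and 6.42 RPM in WT 1, 2 and 3, against 40.1, 82.8 and 91.7 RPM for Tau tg 1, 2 and 3. Every Tau tg sample was above every WT sample. Of the 5832 single sequences of the series above 0 in all samples, 5.86% were separated in this direction, whereas this level is a sum of 5 sequences. These reads are also part of miR-9-5p, whose higher level in Tau tg was known. Reads that matched only Mir9-1 and Mir9-2 stood at 45.4, 134.8 and 33.0 RPM in the WT samples, against 31.3, 63.6 and 24.6 RPM for the Tau tg samples, and here the groups overlapped. Reads that matched only Mir9-3 made up 31.7%, 9.13% and 16.3% of these reads in WT 1, 2 and 3, against 56.2%, 56.6% and 78.9% for Tau tg 1, 2 and 3. The exact (Clopper-Pearson) 95% intervals came closest between WT 1, with an upper bound of 40.0% from 45 of 142 reads, and Tau tg 2, with a lower bound of 48.9% from 99 of 175 reads. With tailed reads counted too, the shares were 29.6%, 9.91% and 50.0% in the WT samples, against 58.2%, 59.8% and 75.3% for the Tau tg samples, and the intervals of WT 3 (38.1% to 61.9%) and Tau tg 1 (53.8% to 62.4%) overlapped. WT 3 moved through a single U-tailed sequence, with which its reads that match only Mir9-3 went from 7 to 37.

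Reads that start 1 base early with a G or U, which no hairpin has there, give the level of other first bases. These untailed reads stood at 29.0, 14.9 and 53.2 RPM in the WT samples, against 52.4, 53.5 and 31.5 RPM for the Tau tg samples, and the groups overlapped. The reads with C were below this sum of G and U in all 3 WT samples and in Tau tg 1, and above it in Tau tg 2 and 3. Taken singly, the G reads and the U reads were each below the C reads in every sample except WT 3. In WT 3, reads with C stood at 6.42 RPM, against 19.3 RPM with G and 33.9 RPM with U. A first base added or misread cannot be told from one that a hairpin encodes, so a match to Mir9-3 does not assign these reads to that hairpin. The intervals cover counting error only, no test was made, and the reads were 0.108% of miR-9-5p for Mir9-3 and 0.141% for Mir9-1 and Mir9-2, and they say nothing of the remaining reads.

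**Figure D4:**
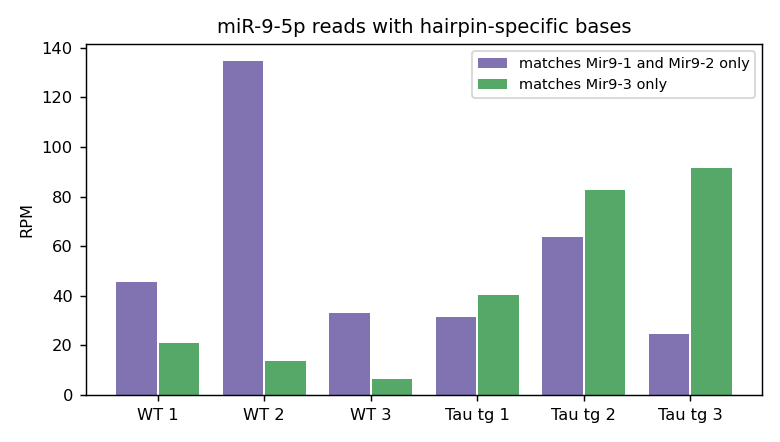
Level in RPM of untailed miR-9-5p reads with bases of only some hairpins, in each sample: reads that match Mir9-1 and Mir9-2 only (purple) and Mir9-3 only (green). Reads that match Mir9-3 only exceed the others in the 3 Tau tg samples and are below them in the 3 WT samples; with tailed reads counted, the share in WT 3 is 50.0%.

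In miR-9-3p, the hairpins differ at the second base past the RefSeq end. Reads that continued as in Mir9-1 and Mir9-2 held 305.3 RPM as a mean over the samples, and those that continued as in Mir9-3 held 9.02 RPM. In this arm the Mir9-3 reads were at 10.8, 0 and 14.7 RPM in the WT samples, against 9.96, 13.4 and 5.32 RPM for the Tau tg samples, without separation of the groups. The limit that a count of 0 allowed in WT 2 was 2.03 RPM. An untemplated A on a read that ends 1 base past the RefSeq end would look like Mir9-1 or Mir9-2.

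Lists of miRNAs assigned to cell types of the brain were examined beside miR-9. They were written with earlier results of these data known, and how specific each member is was not tested. Of the 8 neuronal miRNAs, none had a limma p under 0.05, and their median log2 difference was 0.10, against 0.25 for all miRNAs. Their summed level was 142527 to 148397 RPM in WT, against 126792 to 145680 RPM in Tau tg. The most abundant of them, miR-124-3p, stood at 90279, 79406 and 62253 RPM in the WT samples, against 62813, 70188 and 47769 RPM for the Tau tg samples. None of the 3 oligodendrocyte, 5 microglial and leukocyte, and 4 endothelial and red cell miRNAs had a limma p under 0.05 either. Their summed levels were 8442 to 13591 RPM, 478 to 598 RPM and 5251 to 10482 RPM in WT, against 10627 to 13997 RPM, 444 to 544 RPM and 6700 to 11704 RPM in Tau tg. Their most abundant members were miR-219a-5p, miR-142a-3p and miR-126a-3p, with limma adjusted p-values of at least 0.896.

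In the list of choroid plexus and epithelial miRNAs, 3 of 4 had a limma p under 0.05, all lower in Tau tg. After adjustment none was under 0.05. Over all 689 miRNAs tested, the share with an unadjusted limma p under 0.05 was 3.63%. The 3 members ordered the WT samples alike, with WT 1 lowest and WT 3 highest. Whether they vary independently was not tested, so they cannot be counted as 3 separate observations. miR-200a-3p, miR-200b-3p and miR-429-3p had log2 differences of -1.21 ± 0.43, -1.79 ± 0.43 and -3.09 ± 0.66 (SE), with limma adjusted p-values of 0.896, 0.227 and 0.188. The summed level of this list was 3410 to 11290 RPM in WT and 3244 to 9496 RPM in Tau tg, and no member of any list was at 0 in all samples. miR-200a-3p stood at 930, 2830 and 3692 RPM in WT 1, 2 and 3, against 906, 980 and 877 RPM for Tau tg 1, 2 and 3. WT 1 lay within the Tau tg range, so its group difference came from WT 2 and WT 3. These 2 WT samples were also those with the least miR-9-5p. The most abundant member of the list, miR-204-5p, had the opposite sign, with means of 2835 ± 1724 RPM for WT against 4586 ± 3174 RPM for Tau tg (SD, n = 3) and a log2 difference of 0.61 ± 0.47 (SE; limma adjusted p = 0.896). The part of these miRNAs in the difference of miR-9-5p was not tested. In tissue samples, fewer cells of a type and less RNA per cell cannot be told apart.

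The miRNAs most like miR-9-5p were sought by Pearson's r of log2(RPM + 1) over the 6 samples, among 100 other miRNAs with a mean of at least 1000 RPM. The highest r were 0.87 for miR-744-5p, 0.87 for let-7d-3p, 0.86 for let-7e-5p and 0.85 for let-7b-5p. let-7b-5p was found at 28440, 16956 and 12181 RPM in WT 1, 2 and 3, against 24293, 30868 and 25340 RPM for Tau tg 1, 2 and 3, so it was low in the same 2 samples as miR-9-5p. The lowest r were -0.92 for miR-200a-3p and -0.72 for miR-125a-5p. The other arm, miR-9-3p, had an r of 0.46 and ranked 32nd. Its r ran from 0.26 to 0.80 when 1 sample was left out, and was 0.18 under median-of-ratios scaling. Within the 3 WT samples it was 0.999, and within the 3 Tau tg samples 0.286. The points share the scaling of their library and fall into 2 groups, so these r are descriptions.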

How the data were processed

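Ago-bound short RNAs of 3 WT and 3 Tau tg brains were sequenced, with groups and replicate numbers from the titles. The authors made the deposited table with SPOROS: reads were trimmed (Trim Galore, per the submitters' notes), compiled into unique sequences, cleared of rare reads and of artificial sequences, and annotated by BLAST. The deposited values are RPM, scaled by the authors, and the columns sum to 915719 to 978886 RPM. The deposited 6mer viability score was used as given. The mRNA annotation of the table names mm9, and no coordinates of that build were used. Positions and sequences are from RefSeq (GRCm38.p6) and surrounding genes from GENCODE M21 (GRCm38).

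Whole reads were recovered from the RPM steps for 100% of values (tolerance 0.0011 RPM), with 998248 to 6879551 reads per sample in the rows kept, and 3 reads correspond to 0.427 to 2.75 RPM.

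Each read was aligned without gaps to the 3 hairpins. Up to 3 trailing bases from the first mismatch were called a tail, and up to 2 earlier mismatches were allowed. 19 reads of the 5p arm and 2 of the 3p arm exceeded this and were left out of the shares. Levels were fitted with limma 3.58.1, with trend, on log2(RPM + 1) for features with a mean of at least 1 RPM, which understates changes of low features. Shares were compared with exact two-sided permutation tests (20 assignments) and arms with exact sign-flip tests (64 flips), with Benjamini-Hochberg adjustment. Nothing says how independently the samples were processed beyond being separate mice. Named items were the 5 most abundant reads of each arm, the top read of up to 5 seeds of at least 10 RPM in each arm, the 4 most and 2 least like miRNAs, and marker lists, of which members with p under 0.05 and the most abundant were named.

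Other settings tried were pseudocounts (0.1, 5), the filter (none, 10 RPM), scaling by median of ratios, limma with the trend off, count models of the recovered reads (edgeR 4.0.16, DESeq2 1.42.0), the replicate number as a block, subsets of reads, and each sample left out in turn. In simulated data for 689 miRNAs with a dispersion of 0.1, limma called 90% of 60 miRNAs changed 4-fold at an adjusted p under 0.05. It called 0% with the common dispersion of 0.791 estimated here, set alike for all miRNAs. The members, lists and tests were chosen with earlier results of these data known. The link of 5′ and 3′ ends, the Mir9-3 share, its repeat with tailed reads, the first-base levels and the rankings of main seeds and minor arms were added after the data were seen. R 4.3.3, Python 3.11.15 and SciPy 1.17.1 were used.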

Additional observations from a re-analysis of the deposited data

How the results depend on the processing

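miR-9-5p was higher in Tau tg under every alternative run, with a log2 difference of 0.37 under median-of-ratios scaling, 0.37 with DESeq2, and 0.47 to 0.65 with 1 sample left out. miR-9-3p took the opposite sign under median-of-ratios scaling (-0.0729), edgeR (-0.0041) and DESeq2 (-0.0652), and ran from -0.0563 to 0.33 with 1 sample left out. The replicate numbers showed no pairing over miRNAs, where same-numbered samples had correlations of deviations from -0.069 to 0.041. With a replicate block, 22 sequences had a limma adjusted p under 0.05, against 10 without it, and the cause of this was not tested. The counts of all sequences at an adjusted p under 0.05, 10 in the main comparison, were 16 and 0 with pseudocounts of 0.1 and 5, 4 without a filter, 0 with a mean of at least 10 RPM, 1 without the trend, 49 with edgeR and 564 with DESeq2, and 0 to 17 with 1 sample left out. At an unadjusted p they were 803, and 429 with a pseudocount of 5, 167 with a mean of at least 10 RPM, 2565 with edgeR, 3062 with DESeq2 and 531 to 942 with 1 sample left out. For miRNAs, DESeq2 gave 5 adjusted calls, and leaving out 1 sample gave 0 to 1 adjusted and 18 to 50 unadjusted calls, with the 1 adjusted call without Tau tg 1 and the 50 without WT 1. The cause of these changes was not tested.

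With 1 sample left out, the group differences of miR-9-5p ran from -0.569 to 1.05 percentage points for shifted 5′ ends, -0.0963 to 0.126 for longer reads, -0.282 to 0.666 for tails, -0.129 to 0.101 for mismatches and -0.0404 to 0.0631 for viability, and from -0.0355 to 0.0511 nt for mean length. Those of miR-9-3p ran from -2.43 to 0.158, -2.19 to 0.377, -1.16 to -0.747, -0.0298 to 0.0634 and -0.123 to 0.0498 percentage points, and from -0.016 to 0.0096 nt. The difference in longer reads of miR-9-5p was -0.0287 with reads above 0 in all samples and -0.0164 without mismatched reads, and that in mismatches of miR-9-3p was -0.0242 with reads above 0 in all samples. The differences between the arms kept their direction, at -39.9 to -38.2 (shifted 5′ ends), 34.6 to 36.0 (shorter), -12.8 to -11.8 (longer), 1.51 to 2.11 (tails) and 0.139 to 0.267 (mismatches) percentage points with 1 sample left out, where the smallest possible sign-flip p is 0.0625. With reads above 0 in all samples the last was 0.229 and passed the threshold. The log2 arm ratio difference ran from 0.26 to 0.56.

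Among single reads, 5p read C took the opposite sign under median-of-ratios scaling (-0.0189) and ran from -0.0486 to 0.33 with 1 sample left out. Under median-of-ratios scaling, 3p reads A, B and C were at -0.0105, -0.0856 and -0.0599, and with 1 sample left out reads A, B, C and E ran from -0.0550 to 0.43, -0.0929 to 0.36, -0.0236 to 0.30 and -0.45 to 0.0187. The likeness r fell under median-of-ratios scaling, to 0.71 to 0.78 for the 4 highest miRNAs, 0.18 for miR-9-3p and -0.70 for miR-200a-3p, whose r was -0.98 within WT and 0.67 within Tau tg. Depth limits the reads that match only Mir9-3, with 7 of them in WT 3, or 37 with tailed reads.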

Other observations

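A further 304 sequences were annotated as a Mir9 hairpin but not as a mature arm, and 266 of them were 18 nt or longer. They held 953.2, 527.2 and 728.4 RPM in WT 1, 2 and 3 and 1005, 1152 and 905 RPM in Tau tg 1, 2 and 3, and Tau tg 3 was below WT 1. miR-9b-5p was listed with 1 sequence, at 0.678 to 3.28 RPM over the samples.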
